A study of Mus musculus with 54 samples.

Results

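Chemosensory receptor genes held few accessible regions in mouse embryonic stem (ES) cells. The regions described here were the autosomal ATAC-seq peaks whose centre lay nearest to a transcription start site (TSS) of a receptor gene, that is, of a protein-coding gene in the GENCODE M21 annotation whose name begins with Olfr, Vmn1r, Vmn2r or Taar. There were 1347 such peaks, called members below, among 111741 autosomal peaks and 113737 peaks in all. Of these, 871 lay nearest to an Olfr gene, 173 to a Vmn1r gene, 291 to a Vmn2r gene and 12 to a Taar gene. Sequence whose nearest protein-coding TSS belongs to a receptor gene is called receptor territory below. It covered 53.3 Mb outside N bases, or 2.23% of the autosomal sequence, and held 1.21% of the autosomal peaks.

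The peaks came from ATAC-seq, in which the Tn5 transposase cuts and tags open DNA, in ZHBTc4 mouse ES cells. In this line dox switches off the endogenous Pou5f1 gene, which encodes OCT4. The cells carried the TIR1 ubiquitin ligase component, the fluorescent cell cycle reporter YPet-MD and mCherry-OCT4-AID, an OCT4 fusion driven at a low level by the constitutive PGK promoter, which the auxin indole-3-acetic acid (IAA) sends to degradation. They were transduced pools, and all 54 samples in 24 groups were grown with dox. In 22 samples, sorted into early G1, late G1, S and SG2 phases after 26 hr of dox, cells had received 500 nM IAA for 2 hr or none. In 16 samples sorted into the same phases after 31 hr of dox, cells had received IAA for 2.5 hr or none, followed by a washout of 4.5 hr. The other 16 samples were unsorted, with 34 hr of dox and either no IAA or IAA for 30 min, 1, 2, 3, 4, 6 or 10 hr. The list joined peaks called across the samples, so no value belonged to a sample, a treatment or a cell cycle phase, and no comparison between conditions could be made for these regions.

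Olfr genes encode odorant receptors of the main olfactory epithelium, Vmn1r and Vmn2r genes encode the pheromone receptors of the vomeronasal organ, and Taar genes encode receptors for volatile amines. They form some of the largest gene families in the mouse and sit in dense tandem arrays. A mature olfactory neuron transcribes 1 allele of 1 odorant receptor gene while the other arrays are kept in heterochromatin. ES cells are not known to use these receptors.

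Member sequences of 3 kinds are given first, because the comparisons that follow concern receptor start sites, repeated sequence and motifs. Sequences are from GRCm38.p6 and are written 5′ to 3′. The coordinates beside them are those of the printed stretch and not of the whole peak. The first set is the central part, upstream of the TSS only, of 3 of the members nearest to a receptor TSS, in the direction of the gene, with capitals for a match to a motif searched below. The member at Olfr209 (chr16:59362241-59362348, minus strand) and that at Olfr1033 (chr2:86020512-86020632, plus strand) held no match in these stretches. The member at Olfr658, which was as near to its TSS as that at Olfr1033, is not printed. The member at Vmn1r37 (chr6:66729273-66729381, plus strand) held the ESRRB motif.
Olfr209: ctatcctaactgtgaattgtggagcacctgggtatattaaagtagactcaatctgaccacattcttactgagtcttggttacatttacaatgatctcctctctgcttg
Vmn1r37: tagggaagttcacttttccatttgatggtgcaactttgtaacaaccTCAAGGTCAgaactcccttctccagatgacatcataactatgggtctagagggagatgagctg
Olfr1033: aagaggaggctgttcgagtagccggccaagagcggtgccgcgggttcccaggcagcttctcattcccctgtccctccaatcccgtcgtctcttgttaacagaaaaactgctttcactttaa
The neighbouring gene Vmn1r36 also had a peak at its TSS, 855 bp wide. In its printed stretch (chr6:66719209-66719408, minus strand), 107 of 108 aligned bases (99.1%) matched the Vmn1r37 stretch, the ESRRB motif included. This pair was chosen after its values were seen.
Vmn1r36: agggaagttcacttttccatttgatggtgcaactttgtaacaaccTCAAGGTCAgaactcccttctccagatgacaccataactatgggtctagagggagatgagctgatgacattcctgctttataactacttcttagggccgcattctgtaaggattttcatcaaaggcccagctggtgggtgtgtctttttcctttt

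The second set is the central part of the 3 members with a CTCF match nearest to their centre, with the match in capitals. CTCF is the insulator protein found at the borders of many chromatin loops. The match lay 2.5 bp from the peak centre in the member of Olfr470 (chr7:107852776-107852975, minus strand), 3 bp in that of Olfr368 (chr2:37305431-37305628, plus strand) and 4 bp in that of Vmn1r90 (chr7:14536534-14536733, plus strand). All 3 lay over 5 kb from the TSS, at 5386, 20985 and 26872 bp.
Olfr470: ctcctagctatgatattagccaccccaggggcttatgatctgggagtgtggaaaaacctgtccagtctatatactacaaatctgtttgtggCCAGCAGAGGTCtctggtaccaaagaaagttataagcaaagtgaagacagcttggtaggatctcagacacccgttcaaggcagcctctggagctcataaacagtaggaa
Olfr368: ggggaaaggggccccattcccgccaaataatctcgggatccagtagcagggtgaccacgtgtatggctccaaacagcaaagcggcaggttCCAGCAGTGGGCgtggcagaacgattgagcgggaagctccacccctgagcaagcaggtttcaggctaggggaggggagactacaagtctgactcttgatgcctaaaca
Vmn1r90: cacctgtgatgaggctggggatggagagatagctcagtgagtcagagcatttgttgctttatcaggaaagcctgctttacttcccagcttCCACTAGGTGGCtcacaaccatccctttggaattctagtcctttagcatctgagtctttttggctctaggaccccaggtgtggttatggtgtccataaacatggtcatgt

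The third set shows a stretch shared by members on different chromosomes, chosen after the values were seen. The members nearest to Olfr456 (chr6:42502159-42502278, plus strand), Vmn1r205 (chr13:22575109-22575227, plus strand) and Vmn2r7 (chr3:64881891-64882009, minus strand) belonged to the largest group of members alike in sequence. Capitals mark bases that differ from the Olfr456 member, and 113 of 119 aligned bases were the same in the Vmn1r205 member and 114 of 119 (95.8%) in the Vmn2r7 member.
Olfr456: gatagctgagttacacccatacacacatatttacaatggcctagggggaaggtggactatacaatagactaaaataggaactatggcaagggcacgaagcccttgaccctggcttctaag
Vmn1r205: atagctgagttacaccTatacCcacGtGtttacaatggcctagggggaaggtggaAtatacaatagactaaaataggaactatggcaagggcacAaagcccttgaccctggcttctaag
Vmn2r7: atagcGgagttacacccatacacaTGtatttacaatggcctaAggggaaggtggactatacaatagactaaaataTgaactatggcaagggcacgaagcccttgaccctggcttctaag

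To compare how densely receptor territory was filled, the peaks per Mb were set against those in the territory of all other protein-coding genes on the same chromosome. Receptor territory held 25.3 peaks per Mb and other territory 47.1. By family, the density was 27.8 peaks per Mb for Olfr, 18.6 for Vmn1r, 23.3 for Vmn2r and 54.1 for Taar territory, the last over only 0.222 Mb. Over the 14 autosomes with at least 10 receptor genes, the mean was 25.7 ± 12.5 peaks per Mb (SD) in receptor territory and 47.8 ± 5.83 in other territory. The log2 ratio averaged -1.05 ± 0.74 and was negative on 13 of 14 chromosomes (two-sided sign-flip permutation test over chromosomes, p = 0.00036). Peaks are not independent replicates, so all tests here used chromosomes as units.

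The difference was far from even across the genome. Receptor territory held 9.02 peaks per Mb on chromosome 19, 10.9 on chromosome 14 and 11.5 on chromosome 13, against 46.6, 43.3 and 48.3 in the other territory of these chromosomes. On chromosome 1 the values lay close together, at 41.8 and 43.7. Chromosome 10 was the exception, with 54.7 peaks per Mb in receptor territory and 50.3 elsewhere. Counting only peaks centred on unmasked bases, per Mb of unmasked sequence, left a log2 ratio of -1.09 (permutation p = 0.00043).

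**Figure D1:**
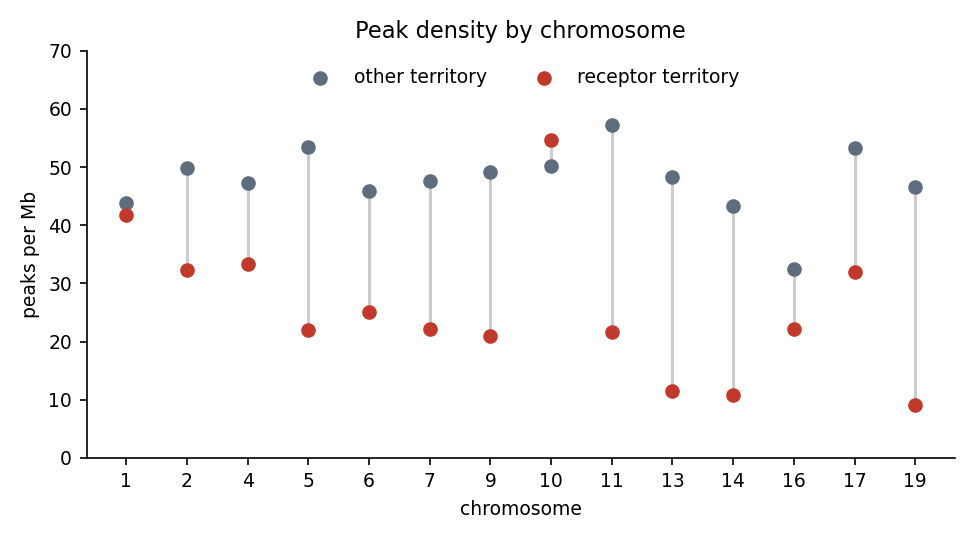
Peaks per Mb (y axis) on each of the 14 autosomes with at least 10 receptor genes (x axis), in receptor territory (red) and in the territory of other protein-coding genes (grey), with a line joining the values of a chromosome. Receptor territory lies lower on 13 chromosomes and higher on chromosome 10, at 54.7 against 50.3.

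Sequence that occurs more than once in the genome is harder to cover with uniquely placed reads, so its share was measured in the reference. Of sampled stretches of 75 bp, 78.7% occurred once in the genome in receptor territory and 92.9% in other territory, and the share was lower in receptor territory on 14 of 14 chromosomes. With the territory scaled by this share the log2 ratio was -0.87 (permutation p = 0.00062). How the authors treated reads with several matches is not given in the sources used here, and its part in the density was not tested beyond this scaling.

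Pooled over autosomes, members were about as dense at receptor start sites as farther away, whereas peaks of other genes were densest at theirs. Within 250 bp of a protein-coding TSS, receptor territory held 26.0 peaks per Mb and other territory 497. From 250 bp to 1 kb the values were 21.4 and 89.5, and from 1 to 5 kb they were 22.9 and 48.9. From 5 to 20 kb they were 27.5 and 56.0, and from 20 to 100 kb 26.8 and 43.9. Beyond 100 kb, where receptor territory held only 53 peaks, they were 18.3 and 26.9. The density in receptor territory stayed between 18.3 and 27.5 peaks per Mb at every distance.

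**Figure D2:**
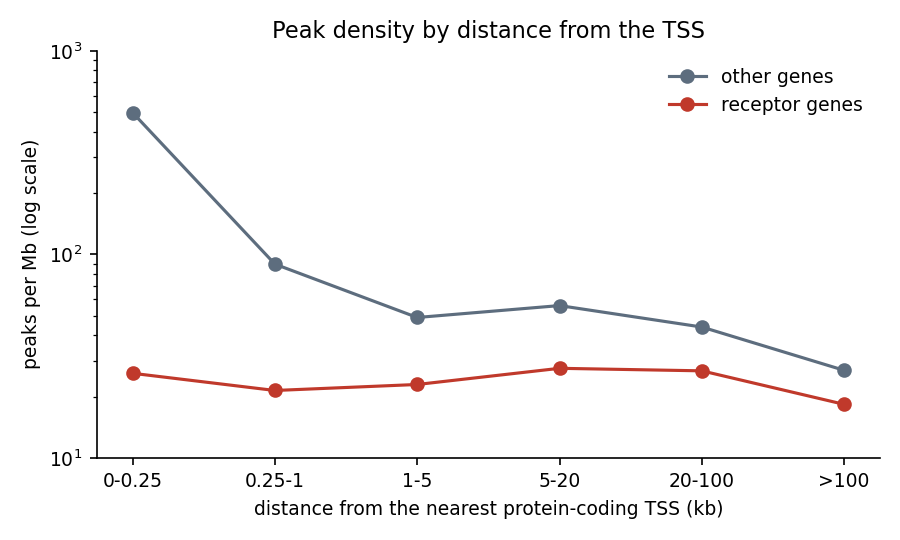
Peaks per Mb on a log scale (y axis) by distance of the peak centre from the nearest protein-coding TSS in kb (x axis), for receptor territory (red) and other territory (grey), pooled over autosomes. The receptor line runs between 18.3 and 27.5, while the other line starts at 497 within 250 bp of the TSS.

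This was tested as the log2 ratio of the density within 1 kb of a TSS to that from 1 to 5 kb, a comparison chosen after the data were seen. The ratio averaged -0.23 ± 1.46 (SD) over 14 chromosomes in receptor territory and was positive on 7 of them (permutation p = 0.558). In other territory it averaged 2.14 ± 0.12 and was positive on 14 of 14 (permutation p = 0.00015). The difference was -2.38 ± 1.49 and negative on all 14 chromosomes (permutation p = 0.00015). The ratio in receptor territory varied widely between chromosomes. On chromosome 6 it was 1.98, close to the 2.02 of other territory, and on chromosomes 14 and 16 it was 1.40 and 1.05. On chromosomes 4, 13 and 19 it was -2.71, -2.17 and -2.80. No member lay within 1 kb of a TSS there, so these values rest on the 0.5 peaks added to each count. They measure no density at the TSS, yet the mean of -0.23 and the difference of -2.38 include them. On chromosome 14 only 3.70% of 27 members lay at a TSS, so its ratio rests on few peaks too. A p that misses the threshold does not show that members were not denser at receptor start sites.

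Of the members, 115 (8.54%, Wilson 95% interval 7.16 to 10.2) were centred within 1 kb of a protein-coding TSS, against 17.0% of all autosomal peaks. Over 15 autosomes with at least 10 members, the share averaged 6.47 ± 5.05% for members and 17.8 ± 3.77% for other peaks, a difference of -11.3 ± 6.00 percentage points that was negative on 14 chromosomes (permutation p = 0.00011). Intervals of this kind cover counting error only. The share was 10.9% for Olfr, 8.67% for Vmn1r and 1.37% for Vmn2r members, with 1 of 12 Taar members. The members otherwise lay mostly in intergenic sequence. By the base at the peak centre, 69.4% were intergenic, 9.21% intronic, 7.28% exonic and 14.1% within 1 kb of a TSS of any annotated gene, against 38.7%, 35.5%, 4.86% and 20.9% of other peaks. Among members near the TSS of some other kind of gene, 26 lay at unprocessed and 25 at processed pseudogenes.

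Counted by gene, 98 of 1472 receptor genes (6.66%, Wilson 95% interval 5.49 to 8.05) had a peak within 1 kb of an own TSS, against 72.3% of all autosomal protein-coding genes. The other 19335 genes reached 77.3%. The difference averaged -70.2 ± 6.71 percentage points over 14 chromosomes and was negative on all (permutation p = 0.00015). The 98 genes were 81 Olfr, 12 Vmn1r, 4 Vmn2r and 1 Taar gene. Chromosomes 4, 13 and 19 had none among 27, 51 and 66 receptor genes, and chromosome 1 had the highest share, 17.9% of 28 genes. For 94 of the 98 genes no other annotated gene started within 1 kb of the peak centre. The peak of Vmn1r4 lay at the start of Nt5c3, which encodes a nucleotidase.

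An annotated TSS that lies at the first coding base is likely to miss the true start. This was so for 10.1% of receptor genes and 3.65% of other genes, counting a gene here only when none of its transcripts had sequence before the coding part. Among genes with such leader sequence, 94 of 1324 receptor genes (7.10%) and 79.3% of other genes had a TSS peak. Among genes without it, 4 of 148 receptor genes (2.70%) and 25.5% of other genes did. For Vmn1r genes 26.0% lacked a leader, and 0 of these 54 had a peak (Wilson upper limit 6.64%). For Taar genes 14 of 15 (93.3%) lacked one, so the share of Taar genes with a TSS peak rests almost wholly on such start sites.

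**Figure D3:**
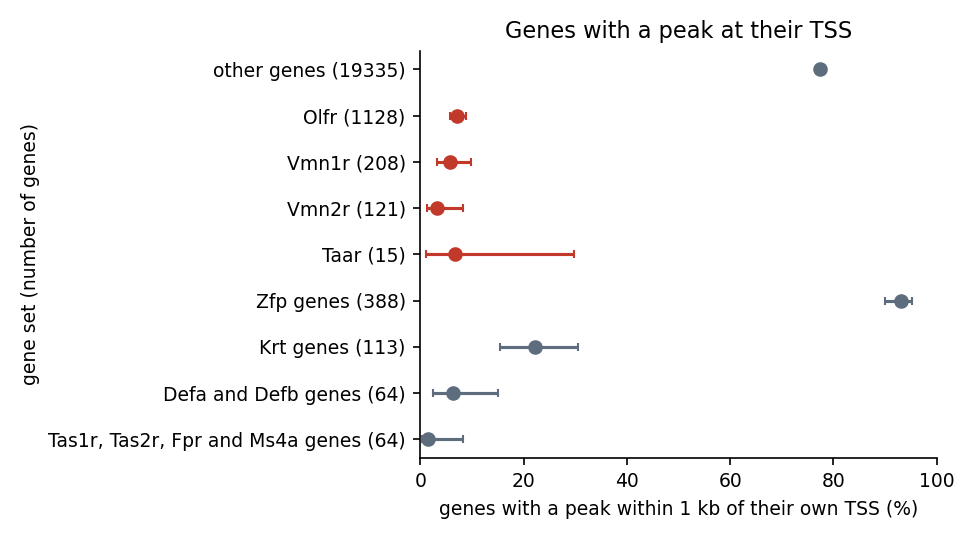
Share of genes with a peak centre within 1 kb of an own TSS in percent (x axis) for the receptor families (red) and other gene sets (grey), with Wilson 95% intervals as bars and the number of genes in brackets. The receptor families lie between 3.31 and 7.18%, near the defensin genes at 6.25% and far below the other genes at 77.3%.

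The peaks at receptor start sites differed in kind from those at other start sites. The 115 members within 1 kb of a TSS had a median width of 254 bp and a quartile range of 219 to 411 bp, whereas the 18862 other peaks had a median of 1071 bp. Their median GC content was 45.1% against 58.4%. The ratio of observed to expected CpG had a median of 0.129 against 0.639, and it was above 0.6 in 2 of the 115 members and in 56.3% of the others. The median distance from the centre to the TSS was 412 bp for members and 125 bp for other peaks. These values are a description, with no test.

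The receptor genes with the nearest peaks were Olfr209 and Vmn1r37, with centres 9 bp from the TSS, and Olfr1033 and Olfr658, with centres 21 bp away. Olfr220, Olfr506, Vmn1r4, Olfr429 and Vmn2r56 followed at 26, 39, 40, 46 and 51 bp. The peak of Olfr1033 was 89.5% repeat-masked and alike in sequence to another peak. That of Olfr209 was 620 bp wide and 17.3% masked, and resembled no other peak. The peak of Vmn1r4 stood apart from the rest, at 1197 bp wide, 57.6% GC and a CpG ratio of 0.858. Those of Olfr1381, Olfr550, Olfr1391 and Vmn2r53 held no masked base. Among the 25 receptor genes with the nearest peaks, 17 were Olfr, 5 Vmn1r and 3 Vmn2r genes, and all 25 centres lay within 196 bp of the TSS. The ESRRB motif occurred in the peaks of 3 of them, Vmn1r32, Vmn1r36 and Vmn1r37, all on chromosome 6. With the peak of Vmn1r35, which was 219 bp from its TSS, they formed a sequence group of 4 members that resembled no peak outside receptor territory. All 4 lay at a TSS, held ESRRB and belonged to a cluster of 8 Vmn1r genes, and they made up 4 of the 5 ESRRB matches among the 115 members at a TSS.

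Of 16 listed receptor genes that are often studied, 15 matched the annotation. A TSS peak was found for 2 of the 15, beside 6.66% of all receptor genes and 72.3% of all autosomal genes, so these few genes show nothing particular to them. The peak of Olfr17, the P2 odorant receptor used in work on receptor choice and axon targeting, was centred 159 bp from the TSS and was 184 bp wide. That of Olfr15 lay at 707 bp. Olfr2, the I7 receptor for octanal, had its nearest peak at 1375 bp, and Olfr78, which is also expressed in the carotid body, at 3403 bp. The nearest peak lay at 4718 bp for Olfr160, at 5729 bp for Olfr544 and at 6623 bp for Olfr558. It lay at 15113 bp for Olfr16, the MOR23 receptor for lyral, and at 126633 bp for Olfr1507, the MOR28 receptor. Taar1 and Taar5, receptors for trace amines and trimethylamine, had theirs at 14928 and 7622 bp. Among the vomeronasal receptors, the nearest peak lay at 32479 bp for Vmn2r26, at 48894 bp for Vmn2r116, the receptor for the male pheromone ESP1, and at 96834 bp for Vmn1r51. For Olfr73, the eugenol receptor, it lay at 85410 bp. Of the 15 genes, 7 were nearest to no peak at all, beside 57.4% of all receptor genes.

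Members were shared unequally between genes. No member lay nearest to 845 of the 1472 receptor genes (57.4%), 1 member lay nearest to each of 319, and 47 genes had 5 or more. Receptor territory held 27.6 genes per Mb and other territory 8.25, so a receptor gene had on average less sequence of its own. The share of other genes without a nearest peak was not computed, so the 57.4% is a description only. Vmn2r112 had 18 members in 144 kb of territory, none of them at its TSS. Vmn2r74 had 16 in 148 kb, Vmn1r3 had 15 in 190 kb and Vmn2r79 had 13 in 166 kb. Olfr161 had 16 in 605 kb. None of these 5 genes had a TSS peak.

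Peaks of receptor territory were narrow. The median width was 324 bp for members, with a range from the 10th to the 90th percentile of 207 to 932 bp, and 447 bp for other peaks, with a range of 215 to 1185 bp. Over 15 chromosomes the difference in medians averaged -86.1 ± 97.7 bp and was negative on 12 (permutation p = 0.00662). Members were wider on chromosomes 4, 5 and 14, by 52.5, 46 and 133 bp. Among distal peaks, over 1 kb from every annotated TSS, the difference was -24.4 bp (permutation p = 0.279), and with a minimum of 5 members a chromosome it was -48.6 bp (permutation p = 0.229). A difference in width was thus not detectable among distal peaks alone. With all members set against only those other peaks within 5 Mb of a receptor TSS, it was larger, at -134 bp (permutation p = 0.0002).

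The widest members included several near chromosome starts. Those of 6252, 5767 and 3952 bp lay nearest to Vmn1r2 (chr4:3080083-3086334, chr4:3050042-3055808 and chr4:3061963-3065914). One of 5987 bp lay nearest to Olfr161 (chr16:3231717-3237703), and one of 4137 bp nearest to Vmn1r77 (chr7:12010412-12014548). Of the 12 members above 2 kb, 9 lay within 1 Mb of the first sequenced base of their chromosome, where 49 members lay in all. Peaks above 5 kb were to be removed by the study's filters, and 3 of the 11 such peaks left in the list were members.

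Repeats made up more of the members than of other peaks. On average 43.1% of the bases of a member were repeat-masked in the reference, against 20.1% in other peaks. At least 50% of the bases were masked in 42.8% of members and 12.3% of other peaks, and no base was masked in 11.6% and 17.2%. The difference in means was 20.3 ± 7.31 percentage points over 15 chromosomes and positive on all of them (permutation p = 8.0e-05). It was smallest on chromosome 1, at 4.58 points, and largest on chromosome 2, at 35.1 points. By family the mean ran from 42.2% for Vmn2r to 46.1% for Taar members.

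The territory itself was rich in repeats, at 50.7% of receptor and 33.1% of other territory. Members were thus less masked than the sequence around them, as other peaks were. After the masked share of the territory on the same chromosome was subtracted, the difference between members and other peaks was 3.93 percentage points (permutation p = 0.0687). The GC content averaged 45.9% in members and 49.6% in other peaks, a difference of -3.53 ± 1.90 percentage points that was negative on 14 of 15 chromosomes (permutation p = 0.00015), in territory of 38.9% and 42.0% GC. The GC difference was -1.81 percentage points among distal peaks only (permutation p = 0.00149). For all peaks relative to the territory it was -0.72 percentage points (permutation p = 0.0886).

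**Figure D4:**
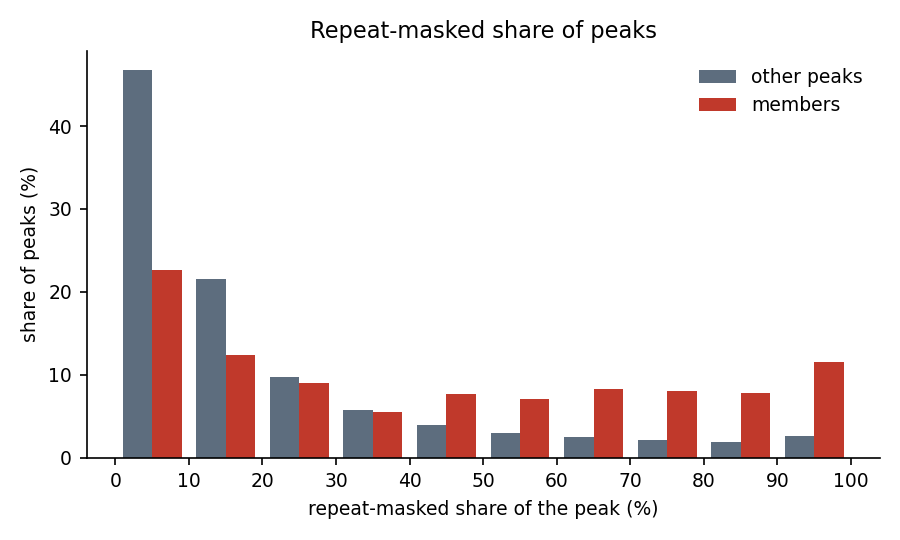
Share of peaks in percent (y axis) by the repeat-masked share of their bases in steps of 10% (x axis), for the 1347 members (red) and the other autosomal peaks (grey). Of other peaks 46.7% fall in the lowest step against 22.6% of members, and the members spread over the whole range, with 11.6% in the highest step.

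Many members resembled other peaks in sequence. An alignment of at least 150 bp with at least 80% identity to another autosomal peak was found for 642 members (47.7%), against 14.1% of all autosomal peaks and 13.7% of other peaks. This measure was added after the data were seen. The difference averaged 33.0 ± 11.6 percentage points over 15 chromosomes and was positive on all (permutation p = 8.0e-05), ranging from 4.26 on chromosome 1 to 52.5 on chromosome 5. For 434 members (32.2%) at least 10 peaks were alike, and for 203 (15.1%) at least 100. Only 26 members resembled other members and no peak outside receptor territory. Members alike to another peak had a mean masked share of 66.2% and a median width of 443.5 bp, and the 705 others had 22.1% and 275 bp. An alignment of at least 150 bp is easier to reach in a wide peak, so these widths are not independent of the measure. Of the 115 members at a TSS, 15 (13.0%) had a like peak, against 5.83% of the 18862 other peaks at a TSS.

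Linked by alignments of at least 200 bp, 405 members fell into 48 groups. The largest held 178 members on 15 chromosomes, 112 of them nearest to Olfr, 17 to Vmn1r, 47 to Vmn2r and 2 to Taar genes, and 2813 peaks outside receptor territory were alike to it. The Olfr456, Vmn1r205 and Vmn2r7 members printed above belong to it. Their shared stretch lies in peaks of 694, 1010 and 1287 bp. A second group held 47 members on 8 chromosomes, with a mean masked share of 78.9%. A group of 10 members on 3 chromosomes lay nearest to Vmn1r genes alone and was wide, with a median of 1878.5 bp. Which repeat families these are was not analysed here.

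Leaving out all peaks that had a like peak gave a log2 density ratio of -1.77 and a difference in width of -148 bp. Both shifts restate the values above, since a larger share of members than of other peaks was removed from an unchanged territory and the members removed were the wider ones, so their p-values are not given. The difference in the masked share was then 7.27 percentage points, on 13 chromosomes (permutation p = 0.00039). This alternative too was chosen after the data were seen.

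Most members lay inside the arrays, with a receptor gene as the nearest protein-coding gene on both sides. These 1016 members (75.4%) had a density of 24.0 peaks per Mb, and the 331 at array edges one of 30.2. Interior members had a median width of 312 bp and edge members one of 377 bp. On the 5 chromosomes with at least 0.5 Mb of each kind the log2 ratio of interior to edge density averaged -0.64 ± 0.45 and was negative on all 5 (exact sign-flip permutation p = 0.0625, the smallest that 5 chromosomes allow). With 1 TSS per gene, 8 chromosomes qualified and the ratio was -0.72 (exact permutation p = 0.00781).

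Receptor arrays differed widely from each other. Receptor genes with at most 1 Mb between neighbouring starts formed 67 clusters, of which 15 held 1 gene. The 29 clusters of at least 10 genes held 1346 genes and 1118 members, with 3.93 to 76.7 peaks per Mb and a median of 21.5. In 26 of the 29 the density was below that in the other territory of the same chromosome. Smaller clusters reached further both ways, from 0 peaks per Mb to 82.1 at the single gene Olfr718-ps1 on chromosome 5. These values have no replicates.

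Among these 29 clusters, the sparsest was that of 65 Vmn1r genes on chromosome 7 (20099680 to 24063554), with 9 members in 2.29 Mb, or 3.93 peaks per Mb, and 64.6% masked sequence. The cluster of 66 Olfr genes on chromosome 19 (11826803 to 13921866) held 17 members, or 8.76 peaks per Mb. The next in order among the 29 were 15 Vmn1r genes on chromosome 6 with 10.2 peaks per Mb, 10 Olfr and 4 Vmn2r genes on chromosome 10 with 10.7, and 36 Olfr and 2 Vmn2r genes on chromosome 14 with 10.9. In these 5 clusters 2 genes had a TSS peak.

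The densest of the 29 was the cluster of 60 Olfr and 4 Vmn2r genes on chromosome 10 (128989431 to 130497396). It held 114 members in 1.49 Mb, or 76.7 peaks per Mb against 50.3 in the other territory of the chromosome, and 11 of its 64 genes had a TSS peak, Olfr770 and Olfr791 among them. The 15 Taar genes of chromosome 10 had 54.1 peaks per Mb, and the 39 Olfr genes of chromosome 2 (111230360 to 112159157) had 51.7. The 19 Olfr genes of chromosome 11 (48978889 to 49565859) had 49.0 and the 68 Olfr genes of chromosome 7 (106675005 to 108894420) had 44.6.

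By number of genes, the first cluster was that of 227 Olfr genes on chromosome 2 (85330779 to 90403897), with 155 members, 31.4 peaks per Mb and 11 genes with a TSS peak. The 129 Olfr genes of chromosome 7 (102476579 to 105369355) had 34.2 peaks per Mb and 15 genes with a TSS peak, and the 95 Olfr genes of chromosome 9 (37708964 to 40190134) had 21.5 and 7. The cluster of 35 Vmn1r, 29 Vmn2r and 8 Olfr genes on chromosome 7 had 14.7 peaks per Mb and 8 genes with a TSS peak.

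**Figure D5:**
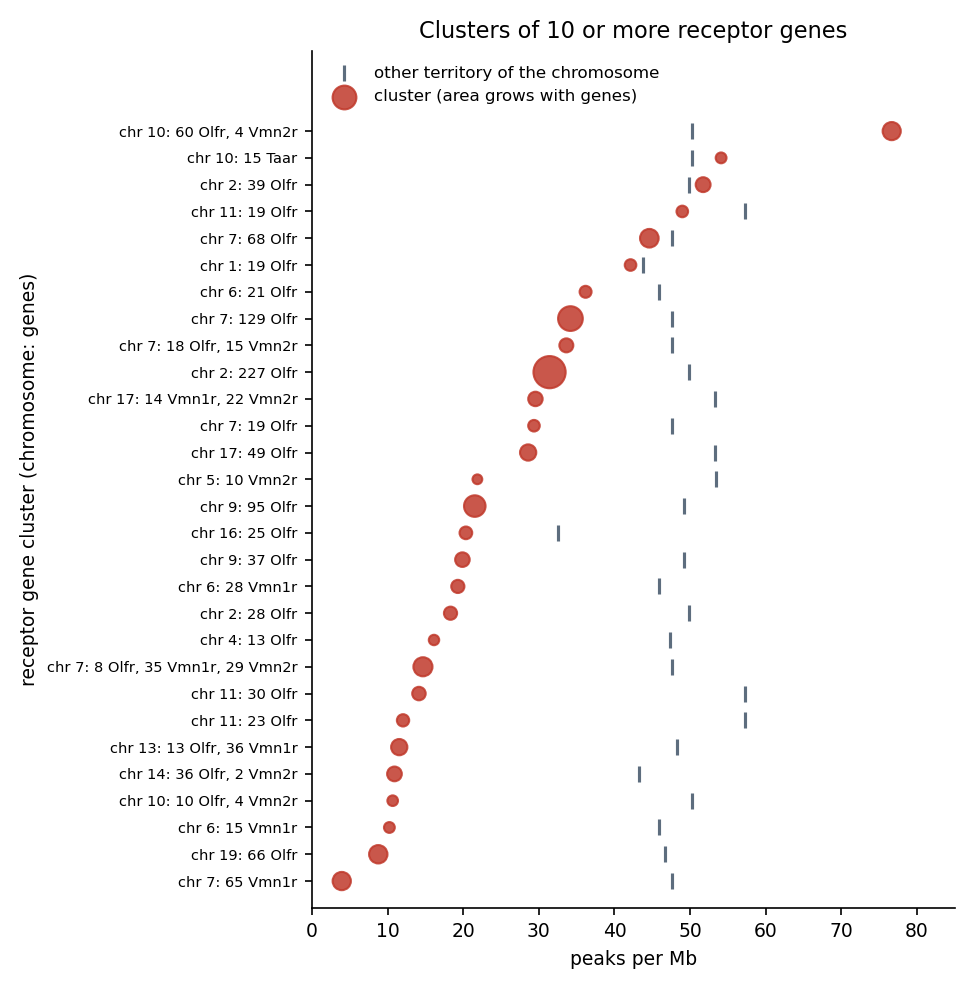
Peaks per Mb (x axis) in the 29 clusters of at least 10 receptor genes (y axis, by chromosome and number of genes), as red discs whose area grows with the number of genes, and in the other territory of the same chromosome as grey ticks. The clusters run from 3.93 to 76.7 and 26 lie to the left of their tick.

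Motifs were counted in the central 300 bp of distal peaks, on both strands, and are a description of letters and not of bound factors. The letters searched were ATGCAAAT for OCT, CCATTGT for SOX, TCAAGGTCA for ESRRB, GGGTGTGG for KLF and CCCNNGGGA for EBF. CTCF was searched with up to 1 mismatch to a consensus of 12 letters, and OCT4::SOX2 with up to 2 mismatches to one of 15 letters that overlaps both the OCT and the SOX motif. In all autosomal peaks the central window held them in 1.84%, 5.91%, 1.85%, 4.62%, 5.93%, 11.7% and 1.33%, in this order.

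Of the 1157 distal members, 103 (8.90%) held CTCF, against 12.9% of other distal peaks. The shares were 1.21% and 1.54% for OCT4::SOX2, the composite site of the pluripotency factors, 2.51% and 2.04% for OCT, and 1.47% and 2.14% for ESRRB. EBF, whose motif is common at olfactory receptor promoters, occurred in 4.75% and 5.18%. It was in 7 of the 115 members at a TSS, a share close to the 5.93% of all autosomal peaks. For these 5 motifs the differences over chromosomes did not pass the test (sign-flip permutation test, p adjusted by Benjamini-Hochberg over 7 motifs of 0.346 for CTCF, OCT4::SOX2 and ESRRB and 0.947 for OCT and EBF). KLF, the motif of the Krüppel-like factors, passed, with 2.77% of members and 4.87% of other peaks and a difference of -2.72 ± 2.29 percentage points that was negative on 13 of 15 chromosomes (permutation, adjusted p = 0.00749). On chromosomes 1, 5, 11, 13, 14 and 19, with 15 to 37 distal members each, none held KLF and each counted as negative. A share of 0 is likely for a rare motif in so few members. How the test behaves with such skewed differences was not checked. With the share in windows 5 kb to either side subtracted, the KLF difference was -1.52 points (permutation, adjusted p = 0.118), and without peaks that had a like peak it was -1.89 points (permutation, adjusted p = 0.256).

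The SOX motif occurred in 7.69% of distal members and 6.68% of other distal peaks (mean difference 2.50 ± 3.81 percentage points, permutation, adjusted p = 0.0564). In windows 5 kb to either side of the members it occurred in 7.56%, and with these shares subtracted the difference was 0.12 points (permutation, adjusted p = 0.940). Its matches were concentrated in the largest sequence group. Of the 171 distal members of that group 43 (25.1%) held the motif, against 46 of the 986 other distal members (4.67%). Without peaks that had a like peak the difference was 0.68 points (permutation, adjusted p = 0.859). No distal member of the group held KLF, against 3.25% of the others.

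Genes that serve the receptors were not short of TSS peaks as the receptor genes were, though the lists here are short and were not tested. Of 14 genes of olfactory and vomeronasal signalling, 11 (78.6%) had a peak within 1 kb of an own TSS, against the 72.3% of all genes. Among them were Gnal, the olfactory G protein alpha subunit, with a centre 245 bp from the TSS, Adcy3, the adenylyl cyclase it activates, at 182 bp, Omp, the olfactory marker protein, at 267 bp, and the vomeronasal G protein subunits Gnai2 and Gnao1 at 166 and 51 bp. Rtp2, which helps odorant receptors to reach the cell surface, had one at 50 bp. The 3 without were Cnga4, a channel subunit, with the nearest peak at 4494 bp, Stoml3 at 3393 bp and Rtp1 at 12283 bp. All 11 genes of receptor choice had a TSS peak, beside the 72.3% of all genes. They included Lhx2, Ldb1 and Ebf1, whose proteins act at receptor enhancers or promoters, with centres 65, 31 and 133 bp from the TSS, the histone demethylase gene Kdm1a at 153 bp, and Lbr and Cbx5, which encode a lamin receptor and a heterochromatin protein, at 4 and 296 bp.

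Other gene families in arrays were set beside the receptors. Of 64 taste, formyl peptide and Ms4a receptor genes, 1 (1.56%) had a TSS peak, namely Ms4a4d with a centre at 875 bp, and their territory held 29.2 peaks per Mb with a mean masked share of 40.3%. The 64 defensin genes (Defa and Defb) had 6.25% of genes with a TSS peak, 27.4 peaks per Mb and 46.0% of peaks with a like peak. The 113 keratin genes (Krt) stood higher, with 22.1% and 37.5 peaks per Mb, at a masked share of 11.5%. The 388 zinc finger genes (Zfp) had a TSS peak in 93.0% and 63.7 peaks per Mb. These sets are given as values with no test, and the density and masked share of the first were measured only over the whole set.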

How the data were processed

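The deposited list held positions only (a chromosome with 2 coordinates for every region), with no count, score or sample. Per the labels and methods, the authors aligned reads to GRCm38 (mm10) with STAR 2.6.1c, removed duplicates with Picard, kept reads on the autosomes and sex chromosomes, ran MACS2 2.1.1.20160309 on paired-end fragments and joined the resulting peaks of dox-treated samples in BEDTools. The methods also filter out regions above 5 kb, on the ENCODE blacklist or shared with peaks of input libraries. The list still held 11 regions above 5 kb, and whether the blacklist and input filters had been applied to it was not tested, though both could lower density and repeat share in repeat-rich arrays. Whether peaks were called per library is not stated. The depth is unknown, and deeper or more numerous libraries would lengthen such a list.

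Peak centres were assigned to the nearest protein-coding TSS of any transcript (GENCODE M21), and soft-masked bases of the GRCm38.p6 FASTA were counted as repeats. Density ratios had 0.5 peaks added to each count. Differences per chromosome were tested by two-sided sign flips with 100000 resamples, exact below 10 chromosomes, at a threshold of 0.05. With 14 and 15 chromosomes, complete enumeration could give no p below 0.00012 and 6.1e-05. Like peaks were found with BLAST 2.17.0. Other steps used Python 3.11.15, numpy 2.4.6, pandas 2.3.3, scipy 1.17.1, networkx 3.6.1, biopython 1.88 and matplotlib 3.10.9. The scripts were tested on simulated data.

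The members and lists were chosen with earlier results of these data known. The like-peak share, the density at the TSS over 1 to 5 kb and the alternatives on unmasked sequence, unique sequence and like peaks were chosen after the data were seen. Named were the 25 receptor genes with the nearest TSS peaks (in part by range), 16 listed receptor genes, the 5 genes with most members, the 5 largest, densest and sparsest clusters, the 5 widest members and the pathway lists.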

Additional observations from a re-analysis of the deposited data

How the results depend on the processing

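Across 367 alternative values for 16 results, 328 kept direction and side of the threshold, 8 no longer passed it, 10 newly passed it and 21 changed sign. The 328 include 10 for interior against edge density that rest on too few chromosomes to pass, and density and width without like peaks, whose shift the removal fixes. These 12 say nothing about stability. Apart from that, density, both measures at start sites, the density at the TSS over 1 to 5 kb and the share with a like peak changed in none. No paired analysis was possible because no value of the merged list belongs to a sample, and for the same reason no replicate could be left out. Each chromosome was left out in its place. The cause of the changes below was not tested.

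Peak width no longer passed with a minimum of 5 members a chromosome (-48.6 bp) or among distal peaks (-24.4 bp), and repeat share (3.93 percentage points) and GC (-0.72) did not once taken relative to the territory. Interior against edge density passed with 1 TSS per gene (-0.72 on the log2 scale).

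Most changes were in motif shares, given in percentage points. KLF did not pass with a minimum of 5 (-2.13) or 30 members (-2.16), relative to flanking windows (-1.52) or without like peaks (-1.89). CTCF and OCT4::SOX2 passed with 1 mismatch fewer (-1.95 and -0.17). Already with 2 mismatches no distal member on chromosomes 3, 4, 5, 10, 11, 13, 14, 16 and 19 held OCT4::SOX2. The stricter search could only give 0 there, so a pass for this motif, here or with a chromosome left out, does not show a depletion. SOX passed with 1 TSS per gene (2.90) and without peaks under 200 bp (2.90), and was 0.12 relative to flanking windows. With a chromosome left out it ranged from 1.87 to 2.79 and passed without chromosome 2, 10, 14 or 17, and OCT4::SOX2 ranged from -0.96 to -0.49 and passed without chromosome 1 (-0.96). OCT4::SOX2 changed sign relative to flanking windows (0.18) and ESRRB with a minimum of 5 (0.25). OCT changed sign without peaks under 200 bp (-0.38), with a minimum of 5 (-0.21), in whole peaks (-0.19), relative to flanking windows (-2.27) and without like peaks (-0.66), and ranged from -0.30 to 0.20 with a chromosome left out (negative without 2, 6, 9, 10, 16 or 19). EBF changed sign with a minimum of 5 (0.25) or 30 (0.41) and relative to flanking windows (1.66), and ranged from -0.63 to 0.26 (positive without 5, 7, 10, 14 or 16). None of the sign changes passed the test in either setting.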
